A study of Mus musculus with 13 samples.

Results

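The 10 rows described here are genes of glycolysis, taken by symbol from a table of 24062 rows: Hk1, Hk2, Gpi1, Pfkl, Aldoa, Tpi1, Pgk1, Pgam1, Eno1 and Ldha. All 10 were found, and all 10 passed the filter on low values. The table holds RNA sequencing of mouse bone marrow cells sorted as lineage-negative, Sca-1-negative and c-kit-positive (LK cells, a gate for committed myeloid and erythroid progenitors). There were 13 libraries in 4 groups: 3 of wild type (WT, TIFAB+/+ and miR-146a+/+), 3 of TIFAB_KO (TIFAB-/- with miR-146a+/+), 3 of miR-146a_KO (TIFAB+/+ with miR-146a-/-) and 4 of dKO, which lacks both. TIFAB is a protein that binds the signalling adaptor TRAF6, and miR-146a is a microRNA that targets Traf6 transcripts. In all groups, WT included, the cells were recovered from lethally irradiated syngeneic Boy/J recipients that had received marrow of the genotype, so the groups compare progenitors after transplantation. The labels give an age of 2 to 5 months, radiation of 7.0 Gy and then 4.75 Gy, and 3 mice a group, without saying how the 4 dKO libraries relate to these mice. Whether libraries of a group came from separate mice is not stated, so p-values measure the spread between these libraries, which may in part be technical.

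Glycolysis splits glucose into pyruvate and yields ATP without oxygen. Hexokinases trap glucose as its phosphate, an isomerase and phosphofructokinase prepare the sugar for splitting by aldolase, and the later enzymes recover ATP, after which lactate dehydrogenase turns pyruvate into lactate and restores NAD+. Hypoxia-inducible factor 1 and MYC are textbook activators of these genes.

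Library depth was 7826843 to 12787982 reads (median 9748244), and the 10 genes together took 0.281% to 0.381% of the reads of a library. Values are log2 CPM (the reads of a gene scaled to a common library total), in which a difference of 1 is a doubling. Tifab was at 39.6 to 49.4 CPM (WT), 64.4 to 70.8 (miR-146a_KO), 8.95 to 12.8 (TIFAB_KO) and 3.23 to 11.0 (dKO), while the row of the miR-146a precursor, Mir146, held 0 reads in all 13 libraries and checks nothing. Libraries TIFAB_KO replicate 3 and dKO replicate 3 stood apart, with a median correlation with the other libraries of 0.947 and 0.951 against 0.962 to 0.974 elsewhere, so several values are also given without them. The marker genes of the gate read as labelled, with Kit at 270 to 459 CPM and Ly6a, the Sca-1 gene, at 0.597 to 5.30 CPM.

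The 10 genes lie on 5 autosomes and the X chromosome (GENCODE M21 on GRCm38, the assembly also called mm10, each the whole gene with its exons, introns and UTRs). The hexokinase genes are Hk1 at chr10:62268855-62379908 and Hk2 at chr6:82725025-82774454, both on the minus strand. Gpi1 (chr7:34201330-34230336), Pfkl (chr10:77986947-78010083), Aldoa (chr7:126795234-126800751) and Tpi1 (chr6:124810586-124814296) are also on the minus strand. Pgk1 (chrX:106187100-106203699), Pgam1 (chr19:41911923-41918660), Eno1 (chr4:150236721-150248879) and Ldha (chr7:46841475-46855627) are on the plus strand.

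The promoters are shown because the factors named above bind short motifs: the core ACGTG of the hypoxia response element, and the E-box CACGTG bound by MYC, which itself contains the core. RefSeq windows (GRCm38.p6) of 300 bases, from 250 bases before to 50 bases after a start site, were found for 10 of 10 genes, with 16 windows in all since some genes have several starts. The core, read on either strand, stood in 7 windows belonging to 6 genes (Hk1, Hk2, Aldoa, Pgk1, Pgam1 and Ldha), against 19.6% of all 32851 promoter windows and 21.8% of 27025 gene symbols. The windows of Aldoa with a core overlap and hold the same match. The E-box stood in 1 window, that of Ldha, which holds it at 2 places, against 7.15% of all windows. In the stretches below, written 5′ to 3′ on the strand of the gene, capitals mark the core on either strand.
Hk2: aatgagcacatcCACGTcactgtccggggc
Aldoa: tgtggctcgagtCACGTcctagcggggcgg
Pgk1: aggACGTGacaaatggaagtagCACGTctc
Pgam1: cgctccttgcttACGTGcgctccgtgactg
Ldha: gcctaCACGTGggttcccgCACGTccgctg
They lie at chr6:82774489-82774518 for Hk2, chr7:126799363-126799392 for Aldoa, chrX:106186947-106186976 for Pgk1, chr19:41911745-41911774 for Pgam1 and chr7:46845751-46845780 for Ldha. The stretch of Ldha runs from 53 to 24 bases before its start and holds 1 of its 2 E-boxes followed by another core. The stretch of Pgk1 holds 2 cores, facing opposite ways. The matches of Hk1 lay after the start site and are not printed. The windows of Gpi1, Pfkl, Tpi1 and Eno1 held no match, which says only that these letters are not in these windows.

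Several of these genes have near-identical copies elsewhere, which limits what a read count can say of them. The share of each gene's 75-base stretches that also occurs, letter for letter, in a transcript of another gene was computed from the longest coding transcript. It was 67.5% for Pgk1 (shared with Pgk1-rs7), 65.4% for Eno1 (mostly with Eno1b), 40.6% for Pgam1 (with Pgam1-ps2) and 14.8% for Gpi1 (mostly with Gm1840). It was 5.23% for Ldha, 2.48% for Tpi1, 1.97% for Hk1, 1.49% for Aldoa and 0 for Hk2 and Pfkl. For Hk1 the shared stretches belong to an overlapping gene, Hk1os. How reads matching several genes, or either strand, were counted is not stated in the labels or file headers, so Pgk1, Eno1, Pgam1 and Gpi1 are uncertain as levels of the single gene.

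Between genes, levels can be compared only per transcript length (CPM per kilobase of the longest coding transcript). On that scale the 10 genes in WT cells ran from 725 to 7.93, with Eno1 alone far below at 0.536. Ldha, lactate dehydrogenase A, was highest of the 10 at 725 ± 10.1 (SD, n = 3), followed by Pgam1, a phosphoglycerate mutase, at 235 ± 46.4. Gpi1, glucose 6-phosphate isomerase, was at 154 ± 14.1, Pgk1, a phosphoglycerate kinase, at 150 ± 10.5, and Aldoa, aldolase A, at 132 ± 39.8, and neighbours among these 3 overlapped between libraries. Tpi1, triosephosphate isomerase, was lower at 59.7 ± 4.22, and Hk1, a hexokinase, at 29.9 ± 1.04. Hk2, the other hexokinase of the list, was at 9.88 ± 0.946 and Pfkl, the liver-type phosphofructokinase, at 7.93 ± 2.41, with overlapping libraries. Eno1, enolase 1, was lowest at 0.536 ± 0.151, on 5 to 32 reads a library.

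Other genes of the pathway place these levels. Gapdh, the dehydrogenase between Tpi1 and Pgk1, was at 900 ± 73.4 in WT, with 80.3% of its stretches shared with other genes. Pkm, the pyruvate kinase that follows enolase, was at 68.7 ± 29.4. Eno3, another enolase, was at 5.99 ± 0.780, above Eno1. At steps with several isozymes, the share of the summed level was Hk1 54.9% ± 5.85 (SD, n = 3), Hk3 27.1% ± 6.13 and Hk2 18.1% ± 1.43 in WT. Pfkl held 30.0% ± 10.1 of the phosphofructokinase level in WT, the rest being Pfkp and Pfkm. Ldha held 98.8% to 99.5% of the summed level of Ldha and Ldhb, and Aldoa 99.0% to 99.6% of that of Aldoa and Aldoc, over all 13 libraries.

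**Figure D1:**
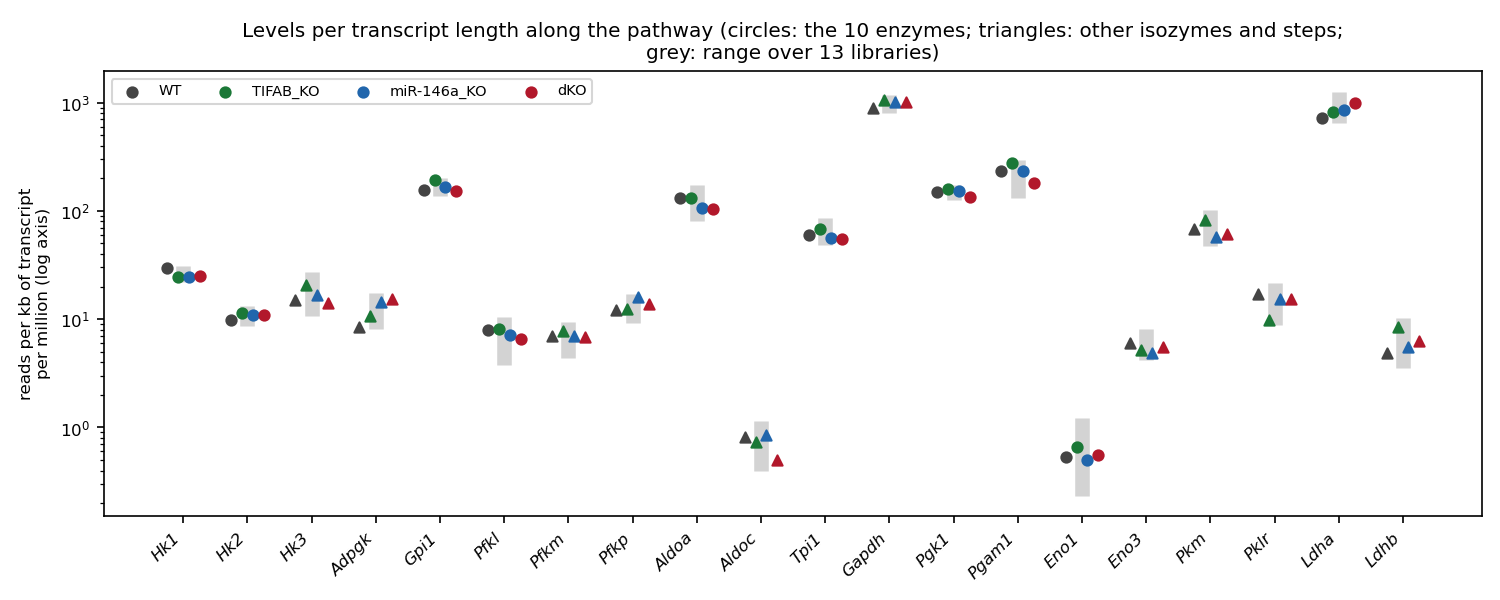
Level of each of the 10 genes and of other isozymes in CPM per kilobase of transcript on a log axis, along the pathway. Circles (the 10 genes) and triangles (others) are group means and grey bars the range over 13 libraries, with Ldha highest and Eno1 lowest of the 10.

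None of the 10 genes passed the test (adjusted p under 0.05, limma's moderated test on the log2 CPM with Benjamini-Hochberg adjustment over 11867 rows) in any of 8 contrasts of the 4 groups. Few rows of the whole table did: 0.0169% of all rows tested between TIFAB_KO and WT, 0.0843% between miR-146a_KO and WT, 0.0674% between dKO and WT, 0.0337% between dKO and TIFAB_KO, 0.0506% between dKO and miR-146a_KO and 0% for the interaction of both losses. Averaged over the state of the other gene, 0.733% were called for miR-146a loss and 0.0169% for Tifab loss. At an unadjusted p under 0.05, 2 of 10 genes stood out for TIFAB_KO against WT (background 5.11% of rows), 0 for miR-146a_KO against WT (9.53%), 2 for dKO against WT (14.1%), 2 for dKO against TIFAB_KO (18.5%) and 1 for dKO against miR-146a_KO (1.93%). For the interaction it was 2 of 10 (4.23%), for averaged miR-146a loss 2 of 10 (23.2%) and for averaged Tifab loss 0 of 10 (2.46%). The contrasts share libraries (the 3 against WT share the WT libraries), so they are not independent of one another. As in any bulk sample, fewer cells of a type and less RNA per cell cannot be told apart.

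**Figure D2:**
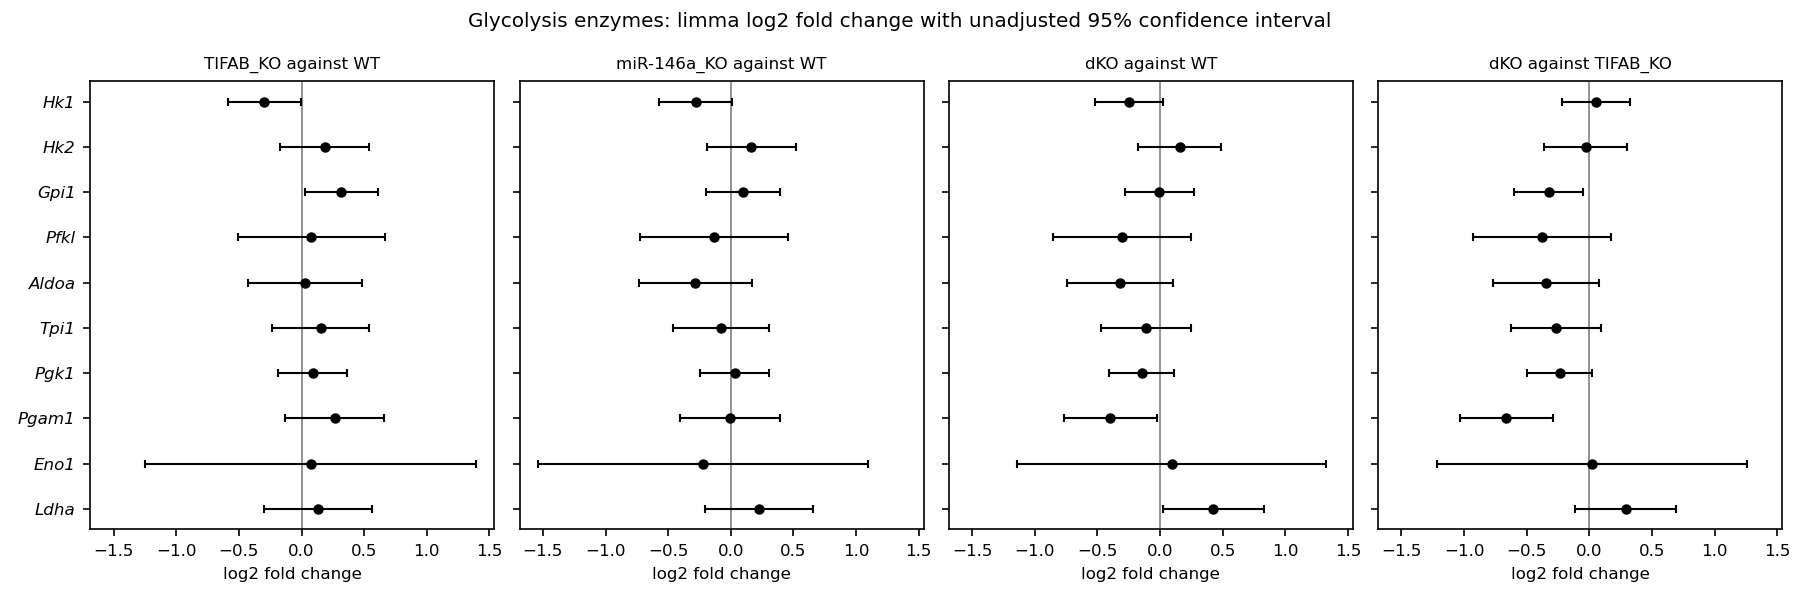
Log2 fold change of the 10 genes in 4 contrasts between groups, each point with its unadjusted 95% confidence interval from the limma fit. Most intervals span 0, and Pgam1 between dKO and TIFAB_KO, at -0.66, lies farthest from it.

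At the entry of the pathway, Hk1 was at 7.02, 6.94 and 7.04 log2 CPM (WT), 6.77, 6.76 and 6.57 (TIFAB_KO), 6.64, 6.73 and 6.78 (miR-146a_KO) and 6.70, 6.68, 6.62 and 6.99 (dKO). Every single-knockout library lay below all 3 WT libraries, and of the dKO libraries only replicate 4 lay within the WT range. Libraries of the groups did not overlap in 8.52% of all rows for TIFAB_KO against WT and in 21.9% for miR-146a_KO against WT. The fitted difference was -0.30 ± 0.14 (log2, SE) in TIFAB_KO (limma adjusted p = 0.968), -0.28 ± 0.14 in miR-146a_KO (adjusted p = 0.535) and -0.25 ± 0.13 in dKO (adjusted p = 0.394). None of these passed the test, and over 26 alternative settings the values stayed between -0.33 and -0.23, between -0.37 and -0.24, and between -0.35 and -0.20. The summed level of 14 erythroid marker genes was 2852 to 3551 CPM (WT), 1836 to 2184 (TIFAB_KO), 2043 to 2514 (miR-146a_KO) and 1999 to 3204 (dKO). Car1, at 767 to 1769 CPM over all libraries, was the highest of the 14, and Hbb-b1 and Hba-a1 were at 0 in all libraries. The part of this sum in the Hk1 values was not tested.

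Hk2 did not share that pattern. Its 13 values ran from 5.58 (TIFAB_KO replicate 3) to 6.17 log2 CPM (TIFAB_KO replicate 2), so the whole range of the gene lay inside 1 group. Group means with SD were 5.76 ± 0.14 (WT), 5.95 ± 0.32 (TIFAB_KO), 5.93 ± 0.12 (miR-146a_KO) and 5.92 ± 0.12 (dKO). The groups overlapped in each contrast, and the difference from WT was 0.19 ± 0.17 (TIFAB_KO), 0.16 ± 0.17 (miR-146a_KO) and 0.16 ± 0.16 (dKO). Without TIFAB_KO replicate 3 and dKO replicate 3 the first was 0.37 ± 0.16 (limma adjusted p = 0.867). Over the alternatives the 3 values ran from 0.07 to 0.37, 0.07 to 0.23 and 0.07 to 0.20, and none passed the test.

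The balance between both hexokinases can be read within a library, as Hk2 minus Hk1 on the log2 CPM scale. It was -1.17, -1.09 and -1.44 (WT), -0.68, -0.58 and -0.99 (TIFAB_KO), -0.68, -0.95 and -0.75 (miR-146a_KO) and -0.64, -0.88, -0.66 and -1.14 (dKO). All 6 single-knockout libraries lay above all 3 WT libraries, and dKO replicate 4 lay within the WT range. Group means differed from WT by 0.48 (TIFAB_KO), 0.44 (miR-146a_KO) and 0.40 (dKO). This ratio was formed after the values of both genes had been seen, so it is a description with no test. In shares of the level per transcript length, Hk1 held 43.6% ± 5.03 (SD, n = 3) of the hexokinase level in TIFAB_KO and 47.1% ± 2.42 (SD, n = 3) in miR-146a_KO, while Hk3 held 36.2% ± 7.35 and 31.7% ± 1.65. In dKO, Hk1 held 50.1% ± 2.62 (SD, n = 4) and Hk3 27.9% ± 2.08. The Hk1 share was 49.4% to 61.0% in WT. It overlapped that range in miR-146a_KO (45.7% to 49.9%) and dKO (48.4% to 54.0%), and lay below it in TIFAB_KO (38.6% to 48.6%).

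**Figure D3:**
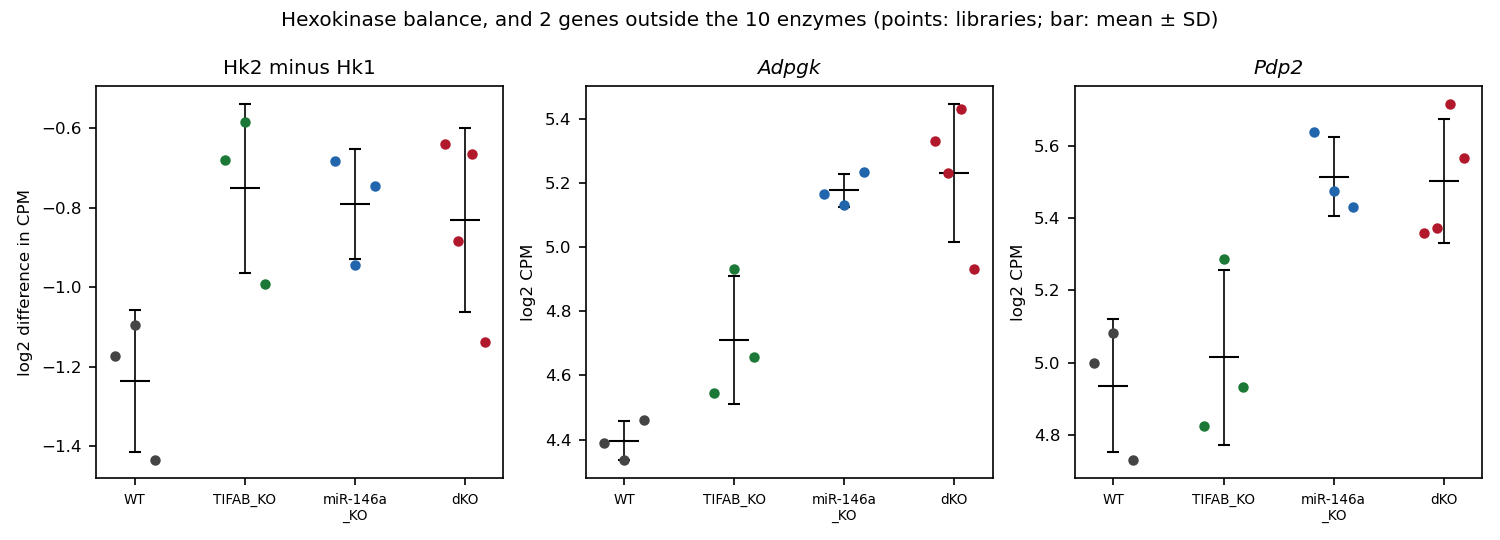
Hk2 minus Hk1 on the log2 CPM scale, and log2 CPM of Adpgk and Pdp2, 2 genes outside the 10 that are described further on, with 1 point per library and bars for the group mean ± SD. Hk2 minus Hk1 lies lower in the WT libraries than in both single knockouts, and Adpgk and Pdp2 lie higher in the 7 libraries without miR-146a than in the other 6.

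Gpi1, which converts glucose 6-phosphate to fructose 6-phosphate, was at 8.85, 8.89 and 8.64 log2 CPM (WT), 9.09, 9.07 and 9.17 (TIFAB_KO), 9.05, 8.78 and 8.85 (miR-146a_KO) and 8.81, 8.68, 8.999 and 8.66 (dKO). The TIFAB_KO libraries were the 3 highest of 13, above all WT and all dKO libraries (no overlap in 10.7% of rows for dKO against TIFAB_KO). The difference was 0.32 ± 0.14 for TIFAB_KO against WT (limma adjusted p = 0.946) and -0.32 ± 0.13 for dKO against TIFAB_KO (adjusted p = 0.209), and the interaction was -0.42 ± 0.19 (adjusted p = 1.000). Without TIFAB_KO replicate 3 and dKO replicate 3 the first was 0.29 ± 0.14 and the second -0.37 ± 0.14, and neither passed the test. The summed level of 10 granulocyte-monocyte progenitor markers, all measured, was 15870 to 17717 CPM (TIFAB_KO), against 7825 to 13553 (WT), 10579 to 13618 (miR-146a_KO) and 8693 to 13080 (dKO). Most of that sum was a single gene, Mpo, at 6715 to 14550 CPM over all libraries. The part of this sum in the Gpi1 values was not tested.

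Pfkl and Aldoa act in sequence, phosphofructokinase adding the second phosphate and aldolase cutting the sugar into 2 parts. Pfkl was at 5.29, 4.82 and 4.42 log2 CPM (WT), 4.72, 5.04 and 5.00 (TIFAB_KO), 4.54, 4.56 and 5.02 (miR-146a_KO) and 4.67, 3.83, 4.49 and 5.17 (dKO). Aldoa was at 8.08, 7.58 and 7.23 (WT), 7.45, 7.81 and 7.71 (TIFAB_KO), 7.39, 7.20 and 7.45 (miR-146a_KO) and 7.18, 6.96, 7.25 and 7.85 (dKO). Both varied more within groups than between them, with WT replicate 1 and dKO replicate 4 high and dKO replicate 2 lowest for both genes. The largest fitted difference of Aldoa with a p under 0.05 was -0.32 ± 0.15 for averaged miR-146a loss (limma adjusted p = 0.206). For Pfkl no contrast had an unadjusted p under 0.05.

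Tpi1, which interconverts the 2 triose phosphates, lay between 6.29 and 7.11 log2 CPM, and its groups overlapped in each contrast. Its highest value was that of TIFAB_KO replicate 3. The difference between TIFAB_KO and WT was 0.15 ± 0.18, and it was -0.04 ± 0.16 without that library and dKO replicate 3.

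In the energy-yielding steps, Pgk1, which makes the first ATP, was the steadiest gene along with Hk1, each with a range of 0.46 over the 13 libraries. Pgk1 was at 8.17, 7.98 and 8.13 log2 CPM (WT), 8.15, 8.12 and 8.28 (TIFAB_KO), 8.31, 8.04 and 8.04 (miR-146a_KO) and 8.04, 7.84, 7.94 and 7.98 (dKO). The dKO libraries lay below all TIFAB_KO libraries by at least 0.08, and below all miR-146a_KO libraries by less than 0.01 (no overlap in 3.72% of rows for dKO against miR-146a_KO). The fitted difference was -0.24 ± 0.12 against TIFAB_KO (limma adjusted p = 0.308) and -0.18 ± 0.12 against miR-146a_KO (adjusted p = 0.9998). Over the alternatives these ran from -0.37 to -0.18 and from -0.22 to -0.09.

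Pgam1, which moves the phosphate of phosphoglycerate, came closest to the threshold of the 10 genes. It was at 8.999, 8.56 and 8.50 log2 CPM (WT), 8.89, 9.04 and 8.92 (TIFAB_KO), 8.92, 8.54 and 8.57 (miR-146a_KO) and 8.63, 7.86, 8.15 and 8.51 (dKO). All 4 dKO libraries lay below all 3 TIFAB_KO libraries, by at least 0.26, while dKO overlapped WT through replicates 1 and 4 and miR-146a_KO through replicate 1. The difference between dKO and TIFAB_KO was -0.66 ± 0.18 (95% interval -1.03 to -0.29, limma unadjusted p = 0.00148 and adjusted p = 0.133), which ranked 130 among the 11867 rows. Over 26 alternative settings it stayed between -0.77 and -0.52, with an adjusted p from 0.0437 to 0.688. Leaving out dKO replicate 4 gave -0.73 ± 0.18 and a limma adjusted p of 0.0459, so 1 library decides on which side of the threshold the gene falls. The same omission raised the rows passing over the whole table from 4 to 278. Without TIFAB_KO replicate 3 and dKO replicate 3 the difference was -0.63 ± 0.21 (adjusted p = 0.688). The summed level of the granulocyte-monocyte progenitor markers (10 of 10 measured) was 15870 to 17717 CPM in TIFAB_KO and 8693 to 13080 CPM in dKO, with no overlap. Most of that sum was Mpo, as given above, and the part of the sum in the Pgam1 values was not tested.

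The same gene was -0.40 ± 0.18 in dKO against WT (limma adjusted p = 0.332) and -0.39 ± 0.18 in dKO against miR-146a_KO (adjusted p = 0.9998). The first was -0.24 without WT replicate 1 and -0.26 without dKO replicate 2, and the second -0.25 without dKO replicate 2. The interaction, which asks whether the dKO value differs from the sum of both single losses, was -0.65 ± 0.26 (unadjusted p = 0.0211, adjusted p = 1.000). TIFAB_KO alone was 0.26 ± 0.19 above WT (0.17 to 0.42 over the alternatives) and miR-146a_KO was -0.01 ± 0.19 from it. The share of Pgam1 stretches found in Pgam1-ps2, given above, applies to each of these values.

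Eno1, which makes phosphoenolpyruvate, had too few counted reads to compare. It had 17, 8 and 10 reads (WT), 5, 10 and 32 (TIFAB_KO), 8, 5 and 13 (miR-146a_KO) and 11, 9, 8 and 16 (dKO), and its fitted differences between groups had standard errors of 0.59 to 0.63. Its near copy Eno1b had 1 to 19 reads. Differences of the size seen for the other genes were not detectable with so few reads. Whether the low count reflects the transcript level or the treatment of reads shared with other genes was not tested.

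Ldha, at the end of the pathway, was at 10.38, 10.34 and 10.36 log2 CPM (WT), 10.21, 10.37 and 10.91 (TIFAB_KO), 10.46, 10.90 and 10.40 (miR-146a_KO) and 10.42, 10.77, 11.17 and 10.79 (dKO). The WT libraries lay within 0.04 of one another, and all 7 libraries without miR-146a lay above all 3 of them, the nearest by 0.02, while 1 TIFAB_KO library was below and 1 within the WT range. The groups did not overlap in 12.5% of all rows for dKO against WT. The difference from WT was 0.43 ± 0.19 in dKO (95% interval 0.02 to 0.83, limma adjusted p = 0.337) and 0.23 ± 0.21 in miR-146a_KO (adjusted p = 0.727). The latter rests on replicate 2 of miR-146a_KO and was 0.07 without it. For averaged miR-146a loss the difference was 0.26 ± 0.14 (adjusted p = 0.274). The highest value was that of dKO replicate 3, and the difference between dKO and WT was 0.30 ± 0.15 without it and TIFAB_KO replicate 3 (adjusted p = 0.366). For TIFAB_KO against WT the value was 0.13 ± 0.21 and changed to -0.07 ± 0.17 without those libraries. The summed level of 8 late granulocyte markers was 20.8 to 69.3 CPM (WT), 32.9 to 199 (TIFAB_KO), 41.5 to 78.1 (miR-146a_KO) and 20.0 to 521 (dKO), and its part was not tested.

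**Figure D4:**
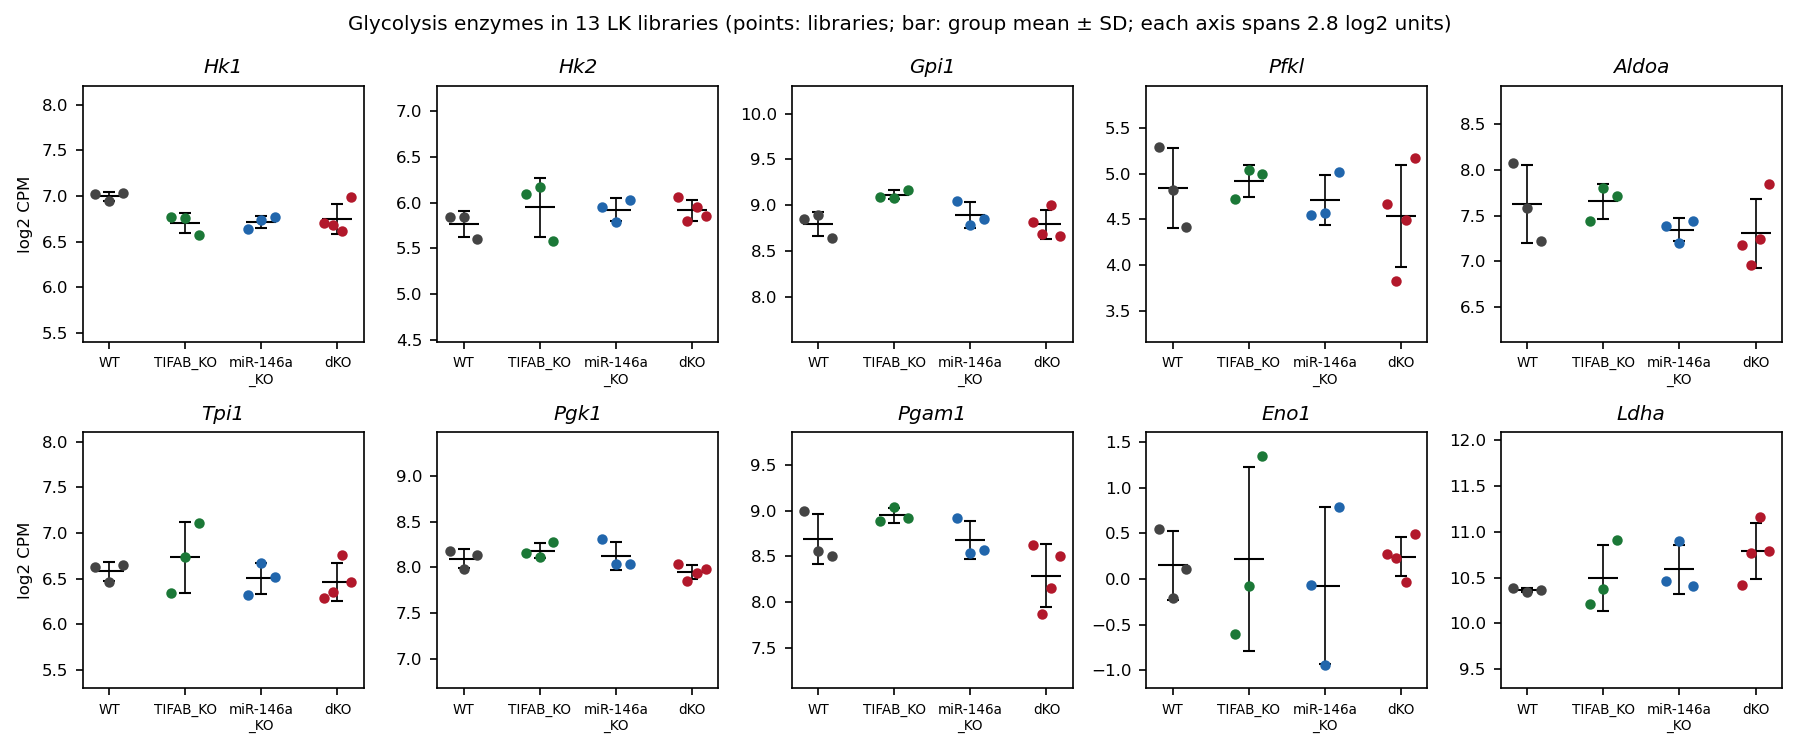
Log2 CPM of each of the 10 genes in the 13 libraries, with 1 panel per gene, 1 point per library and bars for the group mean ± SD (each axis spans the same number of log2 units). The panel of Pgam1 shows the 4 dKO libraries below the 3 TIFAB_KO libraries, and the panel of Ldha shows the 3 WT libraries close together.

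As a set, the 10 genes did not move one way. Against WT, 9 of 10 had a value above 0 in TIFAB_KO (47.6% of all rows did), 4 of 10 in miR-146a_KO (62.2%) and 3 of 10 in dKO (60.0%). The median log2 fold change of the 10 was 0.11, -0.04 and -0.13, beside -0.01, 0.09 and 0.08 for all rows. The TIFAB_KO count rests on TIFAB_KO replicate 3: without it, 5 of 10 were above 0, with a median of 0.02 (all rows 0.05). The miR-146a_KO median turned to 0.08 without WT replicate 1 and to 0.07 without miR-146a_KO replicate 2, with 6 of 10 above 0 each time. The dKO median ran from -0.22 to -0.07 over the alternatives. Centring each library on its median row took the miR-146a_KO median to -0.13 and the dKO median to -0.21 (-0.09 and -0.22 with quantile normalization), while all rows were then at 0.003 and -0.002 under the centring. Between dKO and TIFAB_KO, 7 of 10 were below 0 with a median of -0.25 (all rows 0.09), and Ldha was one of the 3 above. For averaged miR-146a loss, 8 of 10 were below 0 with a median of -0.11 (all rows 0.09), Ldha and Hk2 being above. With single libraries left out, the first of these medians ran from -0.36 (without TIFAB_KO replicate 1) to -0.17 (without dKO replicate 2). The second ran from -0.19 (without TIFAB_KO replicate 1) to -0.09 (without TIFAB_KO replicate 3, all rows 0.06). The same centring took these 2 medians to -0.33 and -0.20, and quantile normalization to -0.39 and -0.25, with Ldha then the only 1 of the 10 above 0 in both contrasts. The largest difference of any of the 10 genes was 0.32 in size for TIFAB_KO against WT, 0.28 for miR-146a_KO and 0.43 for dKO.

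Over the 13 libraries some of the genes varied together. Among 45 pairs, Pearson's r ran from -0.59 to 0.90 with a median of 0.21, and 30 were above 0. Pfkl and Aldoa had r = 0.90 (permutation p = 3e-05, adjusted over the 45 pairs 0.00135) and Spearman's rho = 0.90 (permutation p = 6e-05, adjusted 0.0027). Without the 2 libraries farthest from the median of Pfkl r was 0.87, and on deviations from the group means it was 0.90. Pgk1 and Pgam1 had r = 0.84 (permutation p = 0.00033, adjusted 0.00743) and rho = 0.75 (p = 0.00418, adjusted 0.0941), with 0.88 without the 2 farthest libraries and 0.68 on deviations from the group means. Both genes of that pair share many stretches with other loci, as given above.

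The next pairs joined these 4 genes. Pfkl and Pgam1 had r = 0.72 (permutation p = 0.00631, adjusted 0.0947) and rho = 0.61 (p = 0.0305, adjusted 0.275), with 0.34 without the 2 farthest libraries and 0.71 on deviations from the group means. Aldoa and Pgam1 had r = 0.69 (permutation p = 0.00855, adjusted 0.0962) and rho = 0.57 (p = 0.0479, adjusted 0.359), with 0.46 and 0.67 in the same order. Without the 2 farthest libraries both were much smaller, so they rest in part on those libraries. Tpi1 and Ldha had r = 0.47 (permutation p = 0.103, adjusted 0.474) and rho = 0.38 (p = 0.194, adjusted 0.658), with 0.07 without the 2 farthest libraries and 0.88 on deviations from the group means. For Tpi1 the 2 farthest were TIFAB_KO replicate 3 and dKO replicate 3, the libraries that stood apart. Both were the highest of their group for Tpi1 and for Ldha, and the value of 0.88 includes them.

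Apart from Pfkl with Aldoa, no pair passed after adjustment for both coefficients. The hexokinases Hk1 and Hk2 had r = -0.19 (permutation p = 0.532), and Hk1 and Gpi1 had r = -0.59 (p = 0.0371, adjusted 0.244). Pgam1 and Ldha, 1 lower and 1 higher in dKO than in TIFAB_KO, had r = -0.52 (p = 0.0697, adjusted 0.392) and rho = -0.32 (p = 0.281). All values of a library share its total count, so the points of different genes are not independent measurements.

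**Figure D5:**
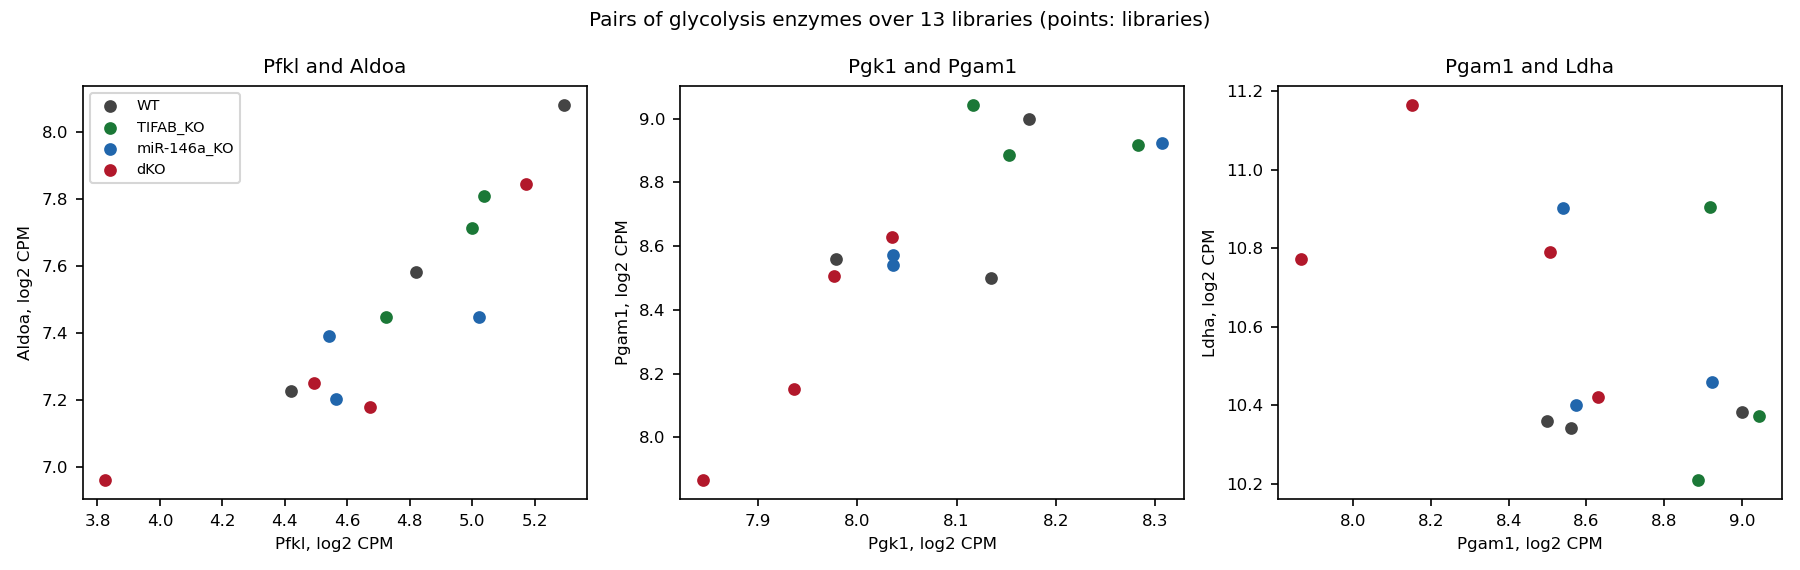
Log2 CPM of Pfkl and Aldoa, Pgk1 and Pgam1, and Pgam1 and Ldha plotted against each other, with 1 point per library coloured by group. Pfkl and Aldoa follow a rising line across all groups, with dKO replicate 2 at the low end and WT replicate 1 at the high end.

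The mean of the 10 standardized genes (each scaled to mean 0 and SD 1 over the libraries) was highest in TIFAB_KO replicate 3 (0.787) and WT replicate 1 (0.646) and lowest in dKO replicate 2 (-1.03). Unnamed loci, such as those with Gm or Rik symbols, were left out of the search for genes like that mean. The 5 other genes most like it, by Pearson's r over 13 libraries, were Prdx5 (0.949), Psmb9 (0.933), Mrpl21 (0.932), Tmbim6 (0.931) and Snrpf (0.931). They are the highest of all remaining rows tested, a description with no test. Prdx5 is a peroxiredoxin, Psmb9 an immunoproteasome subunit, Mrpl21 a mitochondrial ribosomal protein, Tmbim6 a membrane protein of the endoplasmic reticulum and Snrpf a spliceosome protein.

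The wider pathway was read from 7 further lists with 107 genes, of which 106 were in the table and 91 were tested. They cover other isozymes, glucose and lactate transport with flux control, hypoxia-inducible factor and MYC regulators, other hypoxia response genes, the pentose phosphate pathway, pyruvate dehydrogenase with the citric acid cycle, and gluconeogenesis. None of the 91 passed the limma test in any of the 3 contrasts against WT, and at an unadjusted p under 0.05 they numbered 9 (TIFAB_KO, background 5.11% of all rows), 10 (miR-146a_KO, 9.53%) and 16 (dKO, 14.1%). For averaged miR-146a loss 2 rose and 0 fell, where 0.733% of all rows passed.

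Adpgk, an ADP-dependent glucokinase that phosphorylates glucose as the hexokinases do, was 1 of those 2, from the 14 tested other isozymes. It was at 4.39, 4.34 and 4.46 log2 CPM (WT), 4.54, 4.93 and 4.66 (TIFAB_KO), 5.17, 5.13 and 5.23 (miR-146a_KO) and 5.33, 5.23, 5.43 and 4.93 (dKO). All 7 libraries without miR-146a lay above all 6 with it, dKO replicate 4 exceeding TIFAB_KO replicate 2 by 0.0021 (no overlap in 1.57% of rows for averaged miR-146a loss). The averaged difference was 0.65 ± 0.12 (limma adjusted p = 0.0264), made of 0.78 ± 0.18 in miR-146a_KO against WT (adjusted p = 0.151) and 0.52 ± 0.16 in dKO against TIFAB_KO (adjusted p = 0.159). The interaction was -0.26 ± 0.24 and did not pass. The value stayed between 0.56 and 0.71 over 25 alternatives, and it missed the threshold in 11 of them, 10 of which leave out libraries (adjusted p up to 0.093). None of its 75-base stretches occurs in another gene.

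Pdp2, the phosphatase that reactivates pyruvate dehydrogenase, came from the 18 tested genes of transport and flux control. It was at 5.00, 5.08 and 4.73 log2 CPM (WT), 4.83, 5.29 and 4.93 (TIFAB_KO), 5.64, 5.48 and 5.43 (miR-146a_KO) and 5.36, 5.37, 5.72 and 5.57 (dKO). Again the 7 libraries without miR-146a lay above the other 6, by at least 0.07. The averaged difference was 0.53 ± 0.12 (limma adjusted p = 0.0499), at the edge of the threshold, and it missed it in 17 of 25 alternatives (adjusted p up to 0.166), with values from 0.45 to 0.60.

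Summed levels of markers of other cells are set beside these values, without a test. The 8 megakaryocyte and platelet markers, all 8 measured, summed to 711 to 889 CPM (WT), 635 to 780 (TIFAB_KO), 442 to 659 (miR-146a_KO) and 400 to 707 (dKO). The 7 B-lineage markers, of which 3 averaged at least 0 log2 CPM, summed to 13.1 to 18.9 CPM (WT), 13.7 to 17.4 (TIFAB_KO), 24.9 to 34.8 (miR-146a_KO) and 15.5 to 24.1 (dKO). Cd79b, at 9.95 to 17.9 CPM over all libraries, was the highest of the 7. The miR-146a_KO libraries lay below WT for the first list and above every other group for the second, while the dKO libraries lay below WT for the first and overlapped WT for the second. TIFAB_KO overlapped WT in both. Macrophage markers summed to 29.1 to 41.9 CPM (WT), 30.2 to 116 (TIFAB_KO), 45.6 to 59.9 (miR-146a_KO) and 51.5 to 102 (dKO). Mast cell, basophil and eosinophil markers, and T and NK cell markers, overlapped WT in each knockout group. The part of any of these lists in the Adpgk and Pdp2 values was not tested.

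In the other 5 lists none of the genes tested passed in any contrast (11 regulators, 15 hypoxia response genes, 8 of the pentose phosphate pathway, 22 of pyruvate dehydrogenase and the citric acid cycle, and 3 of gluconeogenesis). Among the regulators, Hif1a, the oxygen-sensitive subunit of hypoxia-inducible factor 1, was 0.50 ± 0.20 in dKO against WT (limma adjusted p = 0.286) and Myc 0.46 ± 0.16 (adjusted p = 0.257). Among hypoxia response genes, Ak4, a mitochondrial adenylate kinase, was 0.74 ± 0.21 in TIFAB_KO against WT (adjusted p = 0.584) and Bhlhe40, a transcriptional repressor, -1.66 ± 0.49 in dKO (adjusted p = 0.216). In the pentose phosphate pathway, G6pdx, its first enzyme, was 0.35 ± 0.16 in dKO against WT (adjusted p = 0.325) and Pgls, its second, -0.84 ± 0.24 (adjusted p = 0.214). Of the citric acid cycle, Sucla2 was -0.43 ± 0.17 in TIFAB_KO (adjusted p = 0.854) and Sdhd -0.66 ± 0.30 in dKO (adjusted p = 0.332). On the gluconeogenesis list, G6pc3 was -0.57 ± 0.22 in miR-146a_KO (adjusted p = 0.475) and Fbp1 0.37 ± 0.40 in TIFAB_KO (adjusted p = 0.999). Gapdh and Pkm, the glycolytic steps missing from the 10 genes, were 0.17 ± 0.17 and -0.13 ± 0.24 in dKO against WT (limma adjusted p = 0.639 and 0.819).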

How the data were processed

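RNA of LK cells was sequenced from 13 libraries in 4 groups. Per the labels' protocols, total RNA was amplified with an Ovation kit and libraries were made by Nextera XT tagmentation. Per the submitters' processing notes, TopHat, featureCounts and limma were used with mm10 (no versions, read length or handling of multiply matching reads stated). The deposited table holds log2 CPM values for each library. Each value equals the log2 of a whole read count plus 0.5, divided by the library total plus 1 and scaled to CPM, and whole reads were recovered for 100% of values within 0.01 read. No column was left unused.

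The 10 genes, the lists and the tests were chosen with earlier results of these data known. limma 3.58.1 (R 4.3.3) was fitted to the deposited log2 CPM with 1 mean per group over 13 libraries, with a variance trend, on the 11867 rows averaging 0 log2 CPM or more. Benjamini-Hochberg adjustment covered all rows of a contrast, with a threshold of 0.05. The code was tested on simulated data. Pair correlations used 100000 resamples. All 10 genes are named. From the other lists, genes past the threshold are named, or otherwise the 2 with the smallest p against WT. Lengths, positions and shared stretches come from GENCODE M21, in which 22724 of 24062 rows matched by symbol, and promoters from RefSeq. Printed promoter stretches are the 30 bases before the start with most motif letters. Same-numbered libraries showed no clear tendency to deviate together, so the fit has no pairing.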

Additional observations from a re-analysis of the deposited data

How the results depend on the processing

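The count of the 10 genes past the threshold was recomputed under 26 alternatives, 13 of which leave out 1 library each. The counts were 0 in 203 of 205 recomputations over the 8 contrasts. For dKO against TIFAB_KO the count rose to 1 with the replicate block and ran from 0 to 1 when single libraries were left out, reaching 1 without dKO replicate 4. That gene was Pgam1, at -0.73 ± 0.16 (limma adjusted p = 0.0437) with the replicate block and -0.73 ± 0.18 (adjusted p = 0.0459) without dKO replicate 4. No other group has a replicate 4, so the block fits that library by itself, and both settings leave it out of the contrast. Over the whole table, 146 rows passed in this contrast with the block and 278 without that library, against 4 in the main fit. Why leaving it out raised these counts was not tested. The replicate numbers of the labels showed no clear pairing. Deviations from the group means correlated above 0.1 in 2 of 18 same-numbered pairs (r from -0.20 to 0.23), and 3 of 12 libraries correlated best with one of their own number. With so few libraries a group, this cannot settle whether any were processed together. The column headers carry other numbers that recur between groups, whose meaning is not stated and which were not examined. Of 2042 recomputed fold changes of the 10 genes, the 2 of Pgam1 given above changed side of the threshold, and 102, none of them past the threshold, changed sign. Fits of only the groups compared give no value for the interaction and the averaged losses. With 7826843 to 12787982 reads a library, Eno1 had 5 to 32 reads and the other 9 genes at least 114 in each library. Why Eno1 had so few was not tested.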
